A study of Mus musculus with 8 samples.

Results

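The immune checkpoint genes described here encode 9 surface proteins that restrain or support T cell activation: Cd274, Pdcd1lg2, Pdcd1, Ctla4, Lag3, Havcr2, Btla, Icos and Cd28. They were chosen by gene symbol, and every probe set annotated to one of these symbols alone was taken, which gave 12 probe sets of 34945 with a single gene symbol, and 9 genes of 18193. All 9 genes passed the filter on dim genes, 1 of them, Havcr2, on only 5 of 8 arrays. Where a gene had several probe sets, the one with the highest mean over the 8 arrays was its main probe set, and each value below comes from it unless another is named. The genes were measured on 8 Affymetrix arrays in splenic CD4+ T cells of 8-week-old mice, purified by autoMACS, a magnetic cell separation. The mice were wild type (WT) or deficient for IFN-γ receptor 1 (KO). Cells of all 4 groups were stimulated with antibodies to CD3 and to CD28, itself one of the 9 proteins, for 15 h. For the last 3 h they received dibutyryl cyclic AMP (db-cAMP) or vehicle. This compound enters cells and acts like cyclic AMP, the messenger molecule through which protein kinase A is switched on. Each of the 4 combinations of genotype and treatment had 2 arrays. The sources used here do not name the mouse strain or the number of mice behind an array. The titles call the replicates biological without telling whether they were separate mice or cultures. The p-values therefore set differences against the spread among these arrays, which may not be a spread between mice.

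A T cell that meets antigen also reads a second set of signals from paired surface proteins. CD28 and ICOS are costimulatory receptors, and CTLA-4 competes with CD28 for the same ligands and dampens activation. PD-1 (Pdcd1) is an inhibitory receptor whose ligands are PD-L1 (Cd274) and PD-L2 (Pdcd1lg2). BTLA, LAG-3 and TIM-3 (Havcr2) are further inhibitory receptors. Activated T cells make both the receptors and some of the ligands, and PD-L1 is a classical product of IFN-γ signalling.

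The labels were checked against the data first. For the 4 KO arrays the descriptions name WT cells, against the titles, source names and genotype entries, and the grouping follows the titles. The targeted gene, Ifngr1, was lower in KO than in WT cells, at a log2 difference of -1.12 ± 0.12 (SE) under vehicle and of -2.74 ± 0.12 under db-cAMP (limma adjusted p = 4.1e-05 and 2.97e-09), and since the position of its probe set relative to the disrupted exons is unknown here, this checks nothing by itself. Irf1, a transcription factor induced by IFN-γ, gave signals of 3994 to 10180 on the WT arrays and of 663 to 869 on the KO arrays. All 5 genes of the CD4 T cell list lay above the array median on all 8 arrays. Of these, Cd3e, Cd3d, Cd3g and Cd247 belong to the CD3 complex of all T cells. Cd4 itself gave signals of 253 to 539. The CD8 T cell markers Cd8a and Cd8b1 also lay above the array median on all 8 arrays, Cd8b1 at 140 to 367. Markers of other cells were split. Cd79a of B cells, Ncr1 of NK cells and Itgam of myeloid cells lay below it on all 8, while Ms4a1 of B cells, Klrd1 of NK cells and Lyz2 of myeloid cells lay above it on all 8, and Cd79b and Csf1r on 7. The summed signal of the 5 CD4 T cell markers ran from 49867 to 52355 on the WT arrays and from 37252 to 39792 on the KO arrays, without overlap. Poly-A control signals, which come from RNA added to the samples, also differed between genotypes, at 1270 to 1853 on WT arrays and 3755 to 5294 on KO arrays. They differed with treatment too, at 1270 and 1383 against 1561 and 1853 in WT cells and at 4191 and 3755 against 5294 and 4381 in KO cells. Ratios of 3-prime to 5-prime control signals, a sign of RNA quality, were apart for 18S in all 4 comparisons (0.353 to 0.441 on WT and 0.513 to 0.623 on KO arrays). Those of Gapdh and actin were apart between genotypes under each treatment, and that of Gapdh also with db-cAMP in KO cells. 18S rRNA signals were higher with db-cAMP in both genotypes without overlap, from 25510 and 28570 to 36890 and 37630 in WT cells and from 24550 and 26850 to 31400 and 38700 in KO cells. The part of these technical differences in the results was not tested.

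db-cAMP moved the checkpoint genes in both directions. In WT cells the ligand genes Cd274 and Pdcd1lg2 and the inhibitory receptor genes Btla and Lag3 fell, while Ctla4, Icos and Cd28 rose. In KO cells the same 2 ligand genes, Btla and Pdcd1 fell, and Ctla4, Icos and Cd28 again rose. So 7 of 9 genes passed the test in each genotype, 3 higher and 4 lower in each. Over all 12091 genes tested, 35% passed in WT cells (16.4% higher and 18.6% lower) and 8.38% in KO cells (4.7% higher and 3.68% lower). The median log2 change of the 9 genes was -0.13 in WT and -0.17 in KO cells, against 0.01 and 0.00 over all genes tested, and it sits between genes that moved opposite ways. The test was limma with Benjamini-Hochberg adjustment over all genes tested, and a gene passed at an adjusted p under 0.05. The KO calls depend on how the spread of a gene is estimated. Without limma's intensity trend, which lets the expected spread follow the signal, 1 of the 9 genes, Cd274, passed in KO cells. With each array's 75th percentile made equal, 43.3% of all KO calls were higher, against 56.1% in the values as deposited. Signals here are linear array units, and in such bulk samples a lower signal can mean fewer cells that make a transcript or less of it per cell, which cannot be told apart.

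**Figure D1:**
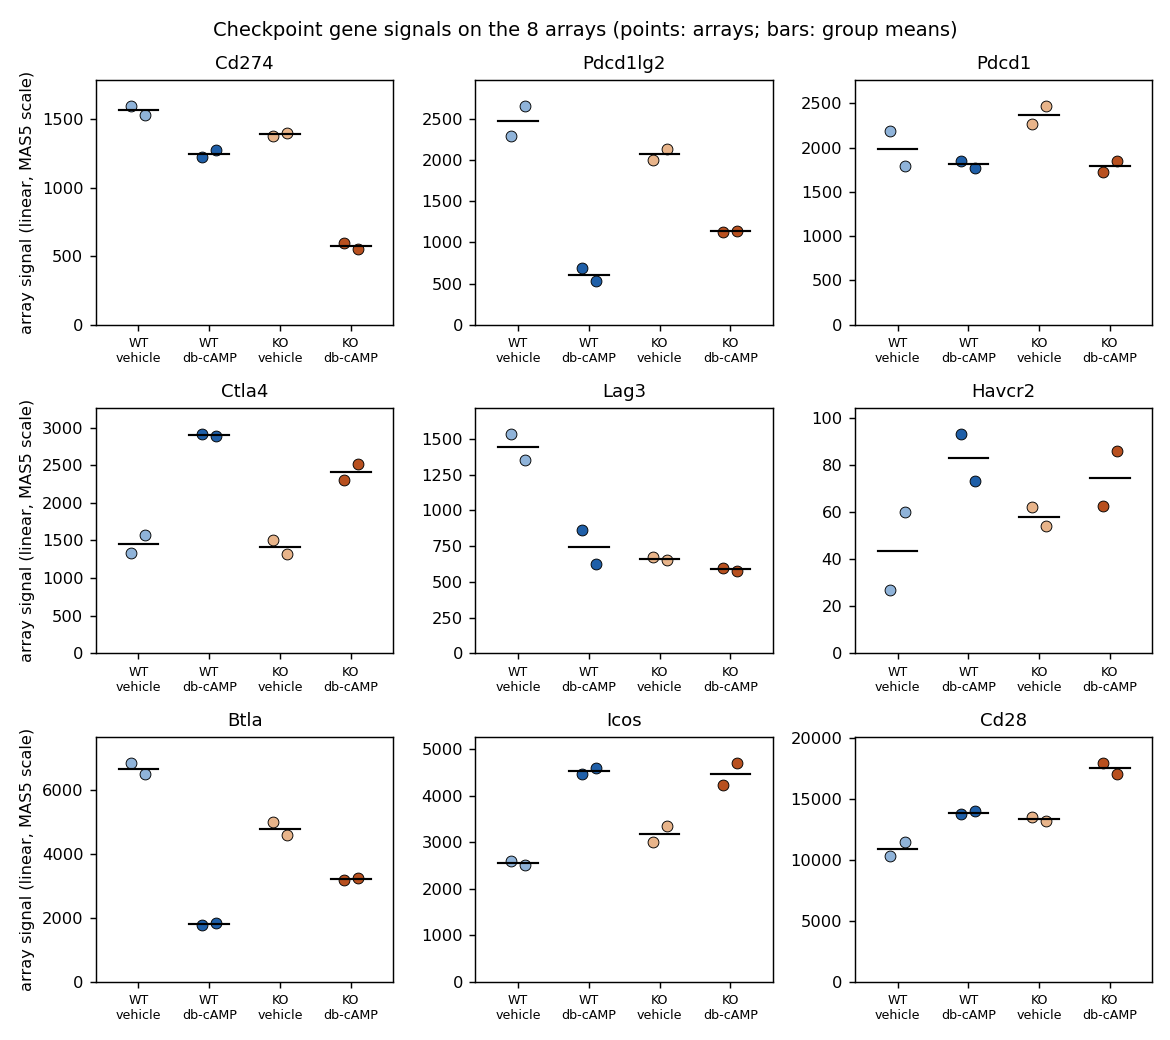
Linear array signal of the main probe set of each of the 9 genes on every array, by group; points are arrays and bars are the means of 2 arrays, and each vertical axis starts at 0. Btla runs from 6504 and 6864 in WT cells with vehicle down to 1788 and 1854 with db-cAMP, while Ctla4 runs from 2297 to 2908 on the 4 db-cAMP arrays and from 1324 to 1571 on the 4 vehicle arrays.

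Of the ligand genes, Pdcd1lg2 showed the largest change of all 9 genes in WT cells. Its signals were 2288 and 2655 on the WT vehicle arrays and 684 and 528 on the WT db-cAMP arrays. In KO cells they were 2001 and 2139 with vehicle and 1122 and 1144 with db-cAMP. The groups with and without db-cAMP were apart in both genotypes, and the KO db-cAMP arrays lay between the WT db-cAMP arrays and all vehicle arrays. The log2 change was -2.03 ± 0.12 (SE) in WT cells (adjusted p = 3.22e-08), a 4.07-fold fall that 0.678% of genes tested exceeded. In KO cells it was -0.87 ± 0.12 (adjusted p = 0.000555), a 1.82-fold fall.

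Cd274, which encodes the other PD-1 ligand, fell far more in KO than in WT cells. Its signals were 1597 and 1532 in WT cells with vehicle and 1223 and 1276 with db-cAMP. In KO cells they were 1381 and 1402 with vehicle and 595 and 555 with db-cAMP. All 4 vehicle arrays lay above all 4 db-cAMP arrays, and the KO db-cAMP arrays stood alone at the bottom. The log2 change was -0.32 ± 0.10 in WT cells (adjusted p = 0.02) and -1.27 ± 0.10 in KO cells (adjusted p = 2.62e-06), a 2.41-fold fall that 1.28% of genes tested exceeded. The WT change is small. Its call was lost when replicate 1 of either WT group was left out, at an adjusted p of 0.102 for the vehicle array and 0.0861 for the db-cAMP array.

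The genes for both PD-1 ligands are direct neighbours on chromosome 19, with 0 protein-coding genes between them in GRCm38.p6, and yet their genotype dependence ran in opposite directions. The 250 bases before the annotated start of each are therefore shown, together with those of Ctla4, the inhibitory receptor gene that rose in both genotypes. Capitals mark every match to the motifs searched on both strands.
Cd274, chr19:29367188-29367437, + strand: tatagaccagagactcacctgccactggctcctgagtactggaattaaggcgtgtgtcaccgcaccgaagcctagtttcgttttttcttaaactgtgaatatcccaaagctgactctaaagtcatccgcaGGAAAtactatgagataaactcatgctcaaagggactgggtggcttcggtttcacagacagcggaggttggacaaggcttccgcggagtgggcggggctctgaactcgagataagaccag
Pdcd1lg2, chr19:29410669-29410918, + strand: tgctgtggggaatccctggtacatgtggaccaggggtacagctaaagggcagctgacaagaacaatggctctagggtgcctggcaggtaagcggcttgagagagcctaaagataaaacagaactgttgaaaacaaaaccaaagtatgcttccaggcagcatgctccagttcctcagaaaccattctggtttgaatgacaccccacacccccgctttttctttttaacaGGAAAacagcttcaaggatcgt
Ctla4, chr1:60908775-60909024, + strand: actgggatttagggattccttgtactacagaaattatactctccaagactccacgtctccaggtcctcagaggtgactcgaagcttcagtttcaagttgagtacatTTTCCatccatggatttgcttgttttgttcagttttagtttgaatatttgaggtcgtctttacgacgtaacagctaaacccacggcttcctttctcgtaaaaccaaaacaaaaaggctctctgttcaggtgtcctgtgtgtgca

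These sequences are RefSeq's, build GRCm38.p6, and RefSeq promoters of 6 of the 9 genes were at hand. The motifs searched were the cAMP response element TGACGTCA and its core TGACG, which lies inside it, the STAT site TTCNNNGAA, the interferon regulatory factor core (GAAA, any NN and GAAA again), the NFAT core GGAAA and the AP-1 site TGANTCA. Among 32851 mouse promoters of the same length, 1.55% held the full cAMP element, 17.8% its core, 7.02% the STAT site, 2.98% the interferon regulatory factor core, 55.6% the NFAT core and 6.75% the AP-1 site. The 6 promoters held the NFAT core in 4 cases (Cd274, Pdcd1lg2, Pdcd1 and Ctla4), the AP-1 site in 1 (Havcr2) and none of the other 4 motifs. In Cd274 the NFAT core begins 120 bases before the start and in Pdcd1lg2 22 bases before it. A missing match says only that these letters are not in this window.

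Btla, an inhibitory receptor of the immunoglobulin superfamily, fell nearly as far as Pdcd1lg2 in WT cells. Its signals were 6864 and 6504 in WT cells with vehicle and 1788 and 1854 with db-cAMP. In KO cells they were 5001 and 4611 with vehicle and 3181 and 3256 with db-cAMP. All 4 vehicle arrays lay above all 4 db-cAMP arrays, and WT cells held both the highest and the lowest group. The log2 change was -1.87 ± 0.08 in WT cells (adjusted p = 9.19e-10), a 3.66-fold fall that 0.968% of genes tested exceeded, and -0.58 ± 0.08 in KO cells (adjusted p = 0.000323), a 1.49-fold fall.

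Lag3 encodes a CD4-related receptor that binds MHC class II. Its signals were 1532 and 1350 in WT cells with vehicle and 865 and 623 with db-cAMP. In KO cells they were 671 and 650 with vehicle and 600 and 576 with db-cAMP. The WT vehicle arrays stood above the 6 others, which ran from 576 to 865. The log2 change with db-cAMP was -0.97 ± 0.15 in WT cells (adjusted p = 0.000148), a 1.95-fold fall. In KO cells it was -0.17 ± 0.15 (adjusted p = 0.607), with a 95% interval from -0.48 to 0.15.

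Pdcd1, which encodes PD-1 itself, moved little. Its signals were 2185 and 1791 in WT cells with vehicle and 1849 and 1774 with db-cAMP, which overlapped. In KO cells they were 2265 and 2469 with vehicle and 1725 and 1853 with db-cAMP, which did not. The log2 change was -0.13 ± 0.10 in WT cells (adjusted p = 0.387; 95% interval -0.35 to 0.10) and -0.40 ± 0.10 in KO cells (adjusted p = 0.029), where Pdcd1 passed as a fall. That call was lost in 6 of 18 alternatives, among them the removal of KO vehicle replicate 1 or 2 (adjusted p = 0.0585 and 0.219) or of KO db-cAMP replicate 1 or 2 (0.206 and 0.0891).

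Ctla4 was the one inhibitory receptor gene of the 9 that rose. Its signals were 1328 and 1571 in WT cells with vehicle and 2908 and 2882 with db-cAMP. In KO cells they were 1502 and 1324 with vehicle and 2297 and 2521 with db-cAMP. The vehicle arrays of both genotypes overlapped one another and lay below all db-cAMP arrays. The log2 change was 1.0 ± 0.10 in WT cells (adjusted p = 4.58e-06), a 2.0-fold rise, and 0.77 ± 0.10 in KO cells (adjusted p = 0.000361), a 1.70-fold rise.

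Havcr2, which encodes TIM-3, was dim. Its signals were 26.8 and 60.3 in WT cells with vehicle and 93.2 and 73.2 with db-cAMP, and 62.4 and 54.1 against 62.7 and 86.3 in KO cells, where array medians ran from 56.2 to 70.5. The log2 change of 0.94 ± 0.53 in WT cells (adjusted p = 0.206) had a 95% interval from -0.22 to 2.09, and that in KO cells was 0.32 ± 0.53 (adjusted p = 0.824; -0.84 to 1.47). Both intervals were wide at this signal. Each held no change as well as a 2-fold rise, and neither held a 2-fold fall.

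Both costimulatory receptor genes rose in both genotypes. Icos, the inducible costimulator, gave 2606 and 2512 in WT cells with vehicle and 4464 and 4588 with db-cAMP. KO cells gave 3004 and 3347 with vehicle and 4237 and 4705 with db-cAMP. The db-cAMP arrays of the 2 genotypes overlapped, and the vehicle arrays did not. The log2 change was 0.82 ± 0.08 in WT cells (adjusted p = 4.08e-06) and 0.49 ± 0.08 in KO cells (adjusted p = 0.00209), that is 1.77-fold and 1.41-fold.

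Cd28, the main costimulatory receptor of naive T cells, gave 10320 and 11460 in WT cells with vehicle and 13730 and 13990 with db-cAMP. KO cells gave 13540 and 13180 with vehicle and 17960 and 17050 with db-cAMP. The groups with and without db-cAMP were apart in each genotype. The rises were small, by a log2 change of 0.35 ± 0.07 in WT (adjusted p = 0.00152) and 0.39 ± 0.07 in KO cells (adjusted p = 0.00348), or 1.27-fold and 1.31-fold. In KO cells the call was lost without KO db-cAMP replicate 1 (adjusted p = 0.0608). Cd28, Ctla4 and Icos lie side by side on chromosome 1, with 0 other protein-coding genes between neighbours, and all 3 rose. The part of this position in the rises was not tested.

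**Figure D2:**
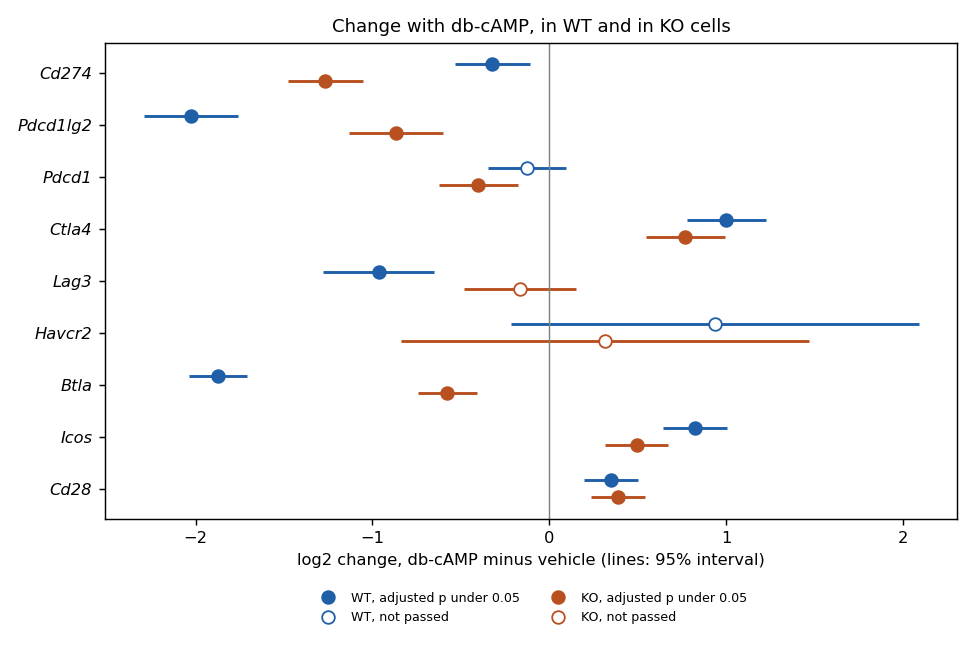
Log2 change with db-cAMP of each gene in WT (blue) and KO (orange) cells, with 95% intervals; filled points passed at an adjusted p under 0.05. Cd274 lies further to the left in KO cells (-1.27 against -0.32), Pdcd1lg2, Btla and Lag3 lie further to the left in WT cells, and the intervals of Havcr2 are the widest.

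Regulatory T cells carry much CTLA-4 and ICOS, so their markers stand beside these rises. In WT cells 2 of 5 regulatory T cell markers rose with db-cAMP and 1 fell, and in KO cells limma called 0 of 5, of which 2 had an unadjusted p under 0.05. Over all genes tested, 16.4% were higher and 18.6% lower in WT cells, and 4.7% and 3.68% in KO cells. The summed signal of the regulatory T cell markers ran from 2299 to 2592 and from 2599 to 2630 in WT cells with vehicle and db-cAMP. In KO cells it ran from 2864 to 2882 and from 3242 to 3380. Foxp3, the defining factor, stood at a log2 change of 0.30 ± 0.24 in WT (adjusted p = 0.379) and 0.40 ± 0.24 in KO cells (adjusted p = 0.405). Of 2 NK cell markers tested, 1, Klrd1, rose in each genotype, and Klre1 did not pass. Ncr1, below the array median on all 8 arrays, was not tested. The sum of these 3 markers ran from 493 to 574 and from 854 to 895 in WT cells and from 463 to 511 and from 988 to 1004 in KO cells. Most of it was Klrd1, at 509 and 379 against 760 and 811 in WT cells and at 436 and 379 against 931 and 928 in KO cells. In both genotypes limma called 0 of 4 B cell, 0 of 3 dendritic cell, 0 of 3 macrophage and neutrophil, 0 of 2 CD8 T cell and 0 of 1 erythroid and platelet markers, and 1 of these, a dendritic cell marker in WT cells, had an unadjusted p under 0.05. The part of regulatory T cell and NK cell markers in the rises was not tested.

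Only Icos and Cd28 had several probe sets, and these gave one direction for db-cAMP and several for genotype. With every probe set tested on its own, all 3 probe sets of Icos rose with db-cAMP, at log2 changes of 0.82, 1.11 and 1.18 in WT and of 0.49, 0.51 and 0.62 in KO cells. Both probe sets of Cd28 rose, at 0.35 and 0.31 in WT and at 0.39 and 0.34 in KO cells. Between genotypes they parted. Under vehicle, the Icos probe sets 1436598_at, 1421930_at and 1421931_at stood at KO-minus-WT differences of 0.31 ± 0.09, 0.89 ± 0.09 and 0.23 ± 0.16 (adjusted p = 0.0344, 2.98e-05 and 0.431). The Cd28 probe sets opposed each other, with 1417597_at at 0.30 ± 0.07 (adjusted p = 0.016) and 1437025_at at -0.19 ± 0.07 (adjusted p = 0.105). On 1437025_at the signals were 10190 and 10700 in WT cells with vehicle against 9238 and 9083 in KO cells, the reverse of the order on 1417597_at. Under db-cAMP the Icos probe sets stood at -0.02, 0.29 and -0.32, of which 1421930_at passed (adjusted p = 0.0272), and the Cd28 probe sets at 0.34 (adjusted p = 0.0032) and -0.16 (0.112).

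**Figure D3:**
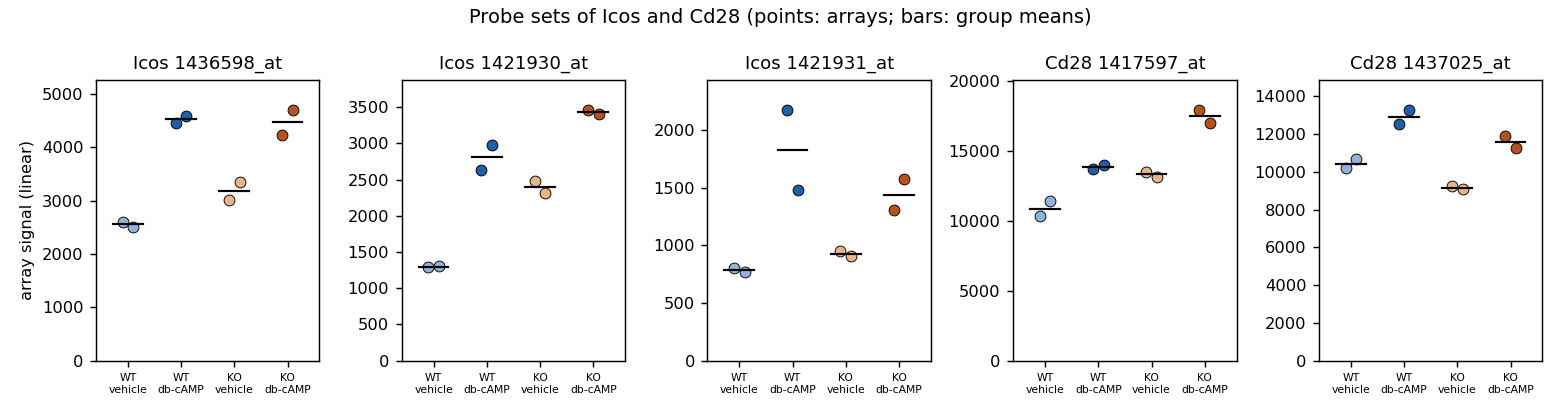
Linear array signal of the 3 Icos and 2 Cd28 probe sets on every array, by group; points are arrays and bars are means of 2 arrays. Each probe set is higher with db-cAMP in each genotype, whereas the KO arrays lie above the WT arrays on Cd28 1417597_at and below them on 1437025_at under the same treatment.

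Without db-cAMP, the loss of the IFN-γ receptor went with lower Lag3 and Btla and with higher main probe set signals of Icos and Cd28. These 4 of 9 genes passed between KO and WT cells under vehicle, 2 higher and 2 lower, where 10.8% of all genes passed (5.06% higher and 5.78% lower). Lag3 was lower, at a log2 difference of -1.12 ± 0.15 (adjusted p = 0.000295), a 2.17-fold difference that 2.61% of genes tested exceeded. Btla was lower as well, at -0.48 ± 0.08 (adjusted p = 0.00136), a 1.39-fold difference. That call was lost without the intensity trend (adjusted p = 0.0672). Icos stood at 0.31 ± 0.08 (adjusted p = 0.0304) and Cd28 at 0.30 ± 0.07 (adjusted p = 0.0166). Neither passed without the intensity trend (adjusted p = 0.184 for Icos and 0.165 for Cd28). The Icos call was lost after quantile normalization (adjusted p = 0.0642), with an equal 75th percentile (0.124), and without WT vehicle replicate 1 (0.0822), WT vehicle replicate 2 (0.142) or KO vehicle replicate 2 (0.2). The Cd28 call was lost with an equal 75th percentile (0.0968), as the mean of its probe sets (0.712), and without WT vehicle replicate 1 (0.141), KO vehicle replicate 1 (0.0988) or KO vehicle replicate 2 (0.0593). Some markers of other T cells differed in this comparison. Of 5 regulatory T cell markers 1 passed, Ikzf2, which was higher in KO cells, at 0.43 ± 0.09 (adjusted p = 0.0086). Foxp3 and Ikzf4 stood at 0.26 and 0.34, and Gpr83 and Nrp1 at -0.40 and -0.04. The summed regulatory T cell markers did not overlap, at 2299 and 2592 in WT and 2882 and 2864 in KO cells. Ikzf2 alone gave 1086 and 1141 in WT and 1494 and 1519 in KO cells. Of 2 CD8 T cell markers Cd8b1 was lower, at -0.92 ± 0.21 (adjusted p = 0.0121), and Cd8a stood at -0.22 (adjusted p = 0.743). Their part in these differences was not tested. With an equal 75th percentile, 25.5% of all calls in this comparison were higher, against 46.7% in the values as deposited.

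The PD-1 ligand genes did not pass between genotypes under vehicle. Cd274 stood at -0.17 ± 0.10 (adjusted p = 0.342), with a 95% interval from -0.38 to 0.04, and Pdcd1lg2 at -0.25 ± 0.12 (adjusted p = 0.245; -0.52 to 0.01). On both genes the 2 KO vehicle arrays lay below the 2 WT vehicle arrays. Irf1, by comparison, was lower in the same KO cells, at -2.50 ± 0.11 (adjusted p = 1.35e-08). Ctla4 stood at -0.03 ± 0.10 (adjusted p = 0.903; -0.26 to 0.19), Pdcd1 at 0.26 ± 0.10 (adjusted p = 0.147; 0.03 to 0.48) and Havcr2 at 0.47 ± 0.53 (adjusted p = 0.688; -0.69 to 1.62). Without WT vehicle replicate 1 the adjusted p of Pdcd1 was 0.05.

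Under db-cAMP the picture of the genotypes was another one. Cd274 was lower in KO cells, and Pdcd1lg2, Btla and Cd28 were higher, so that again 4 of 9 genes passed, 3 higher and 1 lower, where 29.2% of all genes passed (15.9% higher and 13.3% lower). Cd274 stood at -1.11 ± 0.10 (adjusted p = 2.19e-06), a 2.16-fold difference. Irf1 was lower in KO cells here too, at -3.60 ± 0.11 (adjusted p = 9.05e-11). Pdcd1lg2 was higher by 0.91 ± 0.12 (adjusted p = 9.40e-05) and Btla by 0.82 ± 0.08 (adjusted p = 3.58e-06), or 1.88-fold and 1.77-fold. Cd28 stood at 0.34 ± 0.07 on its main probe set (adjusted p = 0.00264), and at 0.09 as the mean of both (adjusted p = 0.354). The call of the main probe set was lost without the intensity trend (adjusted p = 0.0559). Btla is the one gene of the 9 that passed with opposite signs under the 2 treatments, lower in KO cells with vehicle and higher in KO cells with db-cAMP. Without the intensity trend its vehicle difference did not pass (adjusted p = 0.0672). With an equal 75th percentile, which moved the median of all genes to -0.12, 37.9% of all calls were higher, against 54.6% in the values as deposited.

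The other 5 genes did not pass between genotypes under db-cAMP. Ctla4 stood at -0.27 ± 0.10 (adjusted p = 0.0708; 95% interval -0.49 to -0.04) and Lag3 at -0.32 ± 0.15 (adjusted p = 0.128; -0.63 to -0.0020). Both passed after quantile normalization (adjusted p = 0.0394 and 0.0377) and with an equal 75th percentile (0.0089 and 0.0398), Lag3 also without WT db-cAMP replicate 2 (0.0114), and Ctla4 also without WT vehicle replicate 1 (0.0498) and in the arrays compared alone (0.0309). Icos stood at -0.02 ± 0.08 (adjusted p = 0.894; -0.20 to 0.16), Pdcd1 at -0.02 ± 0.10 (adjusted p = 0.918; -0.24 to 0.20) and Havcr2 at -0.16 ± 0.53 (adjusted p = 0.865; -1.31 to 1.0). Beside these differences, markers of other cells also differed between the groups, where 15.9% of all genes were higher and 13.3% lower in KO cells. Of 4 B cell markers tested 2 were lower in KO cells under db-cAMP, Cd79b at -1.28 ± 0.40 and Ms4a1 at -0.76 ± 0.25 (adjusted p = 0.0288 and 0.0345). The sum of 5 B cell markers ran from 367 to 398 on the KO arrays and from 567 to 677 on the WT arrays. Of 5 regulatory T cell markers 1 passed, Ikzf2, which was higher in KO cells, at 0.43 ± 0.09 (adjusted p = 0.0028). Ikzf4 stood at -0.17, and Foxp3, Gpr83 and Nrp1 at 0.36, 0.67 and 0.81. Of 2 CD8 T cell markers Cd8b1 was lower, at -0.89 ± 0.21 (adjusted p = 0.0051), and Cd8a stood at 0.03 (adjusted p = 0.948). The regulatory T cell sums, 3242 to 3380 in KO and 2599 to 2630 in WT cells, and the CD8 T cell sums, 270 to 276 and 367 to 433, did not overlap. Ikzf2 alone gave 1760 and 1871 in KO and 1390 and 1296 in WT cells, and Cd8b1 150 and 140 against 256 and 291. Their part in the result was not tested.

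**Figure D4:**
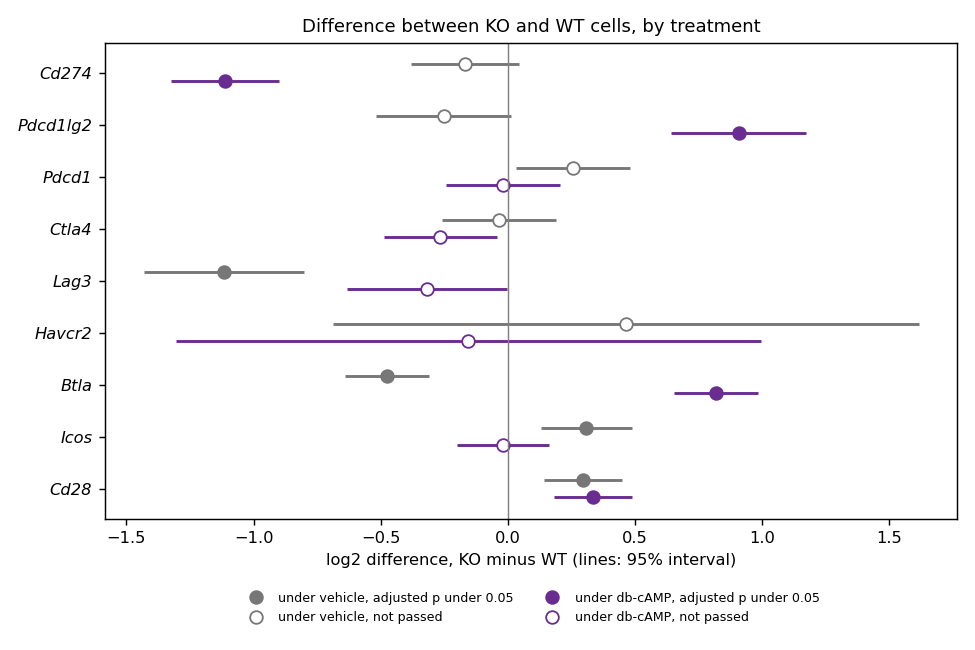
Log2 difference between KO and WT cells for each gene under vehicle (grey) and under db-cAMP (purple), with 95% intervals; filled points passed at an adjusted p under 0.05. Btla lies left of 0 under vehicle (-0.48) and right of it under db-cAMP (0.82), Cd274 is the one filled point left of 0 under db-cAMP, and Lag3 lies furthest left under vehicle.

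Whether the db-cAMP change itself differed between genotypes was tested as an interaction, the change in KO minus the change in WT cells. It passed for 4 of 9 genes, 3 higher and 1 lower, where 11.8% of all genes passed (6.7% higher and 5.09% lower). Btla stood at 1.30 ± 0.11 (adjusted p = 1.30e-05) and Pdcd1lg2 at 1.16 ± 0.17 (adjusted p = 0.000842), so both fell less in KO cells. Cd274 stood at -0.94 ± 0.14 (adjusted p = 0.000672), so it fell more in KO cells. The interaction of Irf1 was also negative, at -1.11 ± 0.16 (adjusted p = 0.000561, but 0.0669 without the intensity trend). Irf1 rose with db-cAMP in WT cells, by 1.25 ± 0.11 (adjusted p = 1.23e-06), and stood at 0.15 ± 0.11 in KO cells (adjusted p = 0.537). Lag3 stood at 0.80 ± 0.21 (adjusted p = 0.0236). The Lag3 interaction was lost in 8 of 17 alternatives, with adjusted p from 0.0604 to 0.087 after leaving out WT vehicle replicate 1, WT db-cAMP replicate 2, or any 1 of the 4 KO arrays.

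The genes that rose with db-cAMP did not pass this test on their main probe sets. The interaction of Ctla4 was -0.23 ± 0.15 (adjusted p = 0.375; 95% interval -0.55 to 0.08), that of Icos -0.33 ± 0.12 (adjusted p = 0.0974; -0.58 to -0.07) and that of Cd28 0.04 ± 0.10 (adjusted p = 0.871; -0.18 to 0.26). For Icos the mean of its 3 probe sets passed, at -0.49 (adjusted p = 0.0305). Pdcd1 stood at -0.28 ± 0.15 (adjusted p = 0.279; -0.59 to 0.04) and Havcr2 at -0.62 ± 0.75 (adjusted p = 0.693; -2.25 to 1.01).

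Genes that act with these receptors were read from lists. The 9 binding partners tested include the CD28 and CTLA-4 ligands Cd80 and Cd86 and the MHC class II genes that LAG-3 binds. Of these 9, 2 rose and 0 fell with db-cAMP in WT cells, where 16.4% of all genes were higher and 18.6% lower. In WT cells 4 of the 9 had an unadjusted p under 0.05. In KO cells limma called 0 of 9, where 4.7% of all genes were higher and 3.68% lower, and 0 had an unadjusted p under 0.05. The partners that rose in WT cells were Cd86 at 1.16 ± 0.42 (adjusted p = 0.0464) and H2-Ab1 at 0.78 ± 0.21 (adjusted p = 0.0103), and both calls were lost without WT vehicle replicate 1 (adjusted p = 0.121 and 0.113) or WT db-cAMP replicate 2 (0.243 and 0.071), that of H2-Ab1 also as the mean of its probe sets (0.38, adjusted p = 0.235), that of Cd86 also without each of WT vehicle replicate 2 (0.132), KO db-cAMP replicate 1 (0.0584) and KO db-cAMP replicate 2 (0.0564), and at 0.05 without WT db-cAMP replicate 1. Between genotypes limma called 2 of 9 partners lower and 0 higher in KO cells under vehicle, and 6 of 9 lower and 0 higher under db-cAMP, where 5.78% and 13.3% of all genes were lower. The medians were -0.57 and -0.67. Under vehicle 7 of 9 did not pass, and H2-Ab1 stood at 0.19. The vehicle call of H2-Eb1 was lost without WT vehicle replicate 1 (adjusted p = 0.0592) or KO vehicle replicate 2 (0.0767). Under db-cAMP that of Tnfrsf14 was lost without replicate 1 of the WT group (0.0763) or of the KO group (0.074), and that of Cd86 without replicate 2 of the WT group (0.147) or of the KO group (0.144). The B cell markers Cd79b and Ms4a1 were lower in the same comparison, and their part in the MHC class II and Cd86 differences was not tested. Lgals9, a TIM-3 ligand, gave 714 and 778 in WT and 336 and 380 in KO cells with vehicle, a difference of -1.05 ± 0.14 (adjusted p = 0.000267).

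Other surface molecules that restrain or support T cells included more falls than rises in WT cells, and these and the following counts stand beside 18.6% of all genes lower and 16.4% higher in WT cells, and 3.68% lower and 4.7% higher in KO cells. Of 10 other inhibitory molecules 5 fell and 0 rose in WT cells, and 2 fell and 0 rose in KO cells, with medians of -0.09 and -0.18. The fall of Vsir, which encodes the B7-family protein VISTA, was from 3198 and 2988 to 624 and 680 in WT cells (log2 -2.24 ± 0.09, adjusted p = 8.66e-10) and from 3335 and 3711 to 2311 and 2311 in KO cells (-0.60 ± 0.09, adjusted p = 0.000812, but 0.0604 without the intensity trend). Its interaction was 1.63 ± 0.13 (adjusted p = 7.11e-06), of the same sign as those of Btla and Pdcd1lg2. Cd160, like BTLA a receptor for the TNF-receptor family protein HVEM, stood at -1.08 ± 0.15 in WT cells (adjusted p = 5.95e-05) and at 0.01 ± 0.15 in KO cells (adjusted p = 0.979). Of 9 other costimulatory molecules 6 fell and 1 rose in WT cells, and 3 fell and 2 rose in KO cells, with medians of -0.99 and -0.28. The SLAM-family receptor Slamf1 fell from 3635 and 3663 to 1063 and 1074 in WT cells (-1.77 ± 0.08, adjusted p = 1.31e-09) and also fell in KO cells, at -0.58 ± 0.08 (adjusted p = 0.000291). Cd2, a costimulatory adhesion molecule, rose by 0.38 ± 0.07 in WT and 0.36 ± 0.07 in KO cells (adjusted p = 0.00129 and 0.00888), the KO call being lost without KO vehicle replicate 1 (0.0715) or either KO db-cAMP array (0.0733 and 0.0755).

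Signalling and regulatory genes of these receptors moved both ways. Of 11 genes of proximal signalling 5 rose and 4 fell in WT cells, and 2 rose and 2 fell in KO cells. Pik3r1, a regulatory subunit of the PI3-kinase that CD28 and ICOS recruit, rose from 552 and 587 to 2431 and 2510 in WT cells (2.11 ± 0.12, adjusted p = 1.51e-08) and by 1.46 ± 0.12 in KO cells (adjusted p = 4.11e-06). Cblb, a ubiquitin ligase that sets the need for CD28 costimulation, rose by 1.11 ± 0.07 and 1.15 ± 0.07 (adjusted p = 4.85e-08 and 5.27e-07). Ptpn6, the phosphatase SHP-1 of inhibitory receptors, fell in both genotypes, at -1.57 ± 0.09 and -0.93 ± 0.09 (adjusted p = 1.47e-08 and 1.91e-05). Of 8 genes that act on the proteins or mRNAs of the checkpoint genes 2 rose and 1 fell in WT cells, while limma called 0 in KO cells, where 3 had an unadjusted p under 0.05. The fall was that of Lrba, at -0.83 ± 0.19 (adjusted p = 0.00366), which turned to 0.33 as the mean of its probe sets (adjusted p = 0.592). Of the rises, Def6 and Ap2m1, that of Ap2m1 was lost when the second WT vehicle array (adjusted p = 0.0988) or the first WT db-cAMP array (0.119) was left out. Of 13 transcription regulators 5 rose and 5 fell in WT cells, and 2 rose and 3 fell in KO cells. Stat3 rose in both genotypes, at 2.39 ± 0.10 and 1.41 ± 0.10 (adjusted p = 1.42e-09 and 1.96e-06). Eomes rose in WT cells, at 1.59 ± 0.18 (adjusted p = 9.04e-06), and stood at 0.27 ± 0.18 in KO cells (adjusted p = 0.446). Nfatc1, a calcium-dependent activator of Pdcd1, fell from 2135 and 2078 to 795 and 738 in WT cells (-1.45 ± 0.09, adjusted p = 4.43e-08) and also fell in KO cells, at -0.54 ± 0.09 (adjusted p = 0.00207). Tbx21, which encodes T-bet, gave 1300 and 1414 in WT and 132 and 149 in KO cells with vehicle (-3.22 ± 0.16, adjusted p = 2.61e-08).

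**Figure D5:**
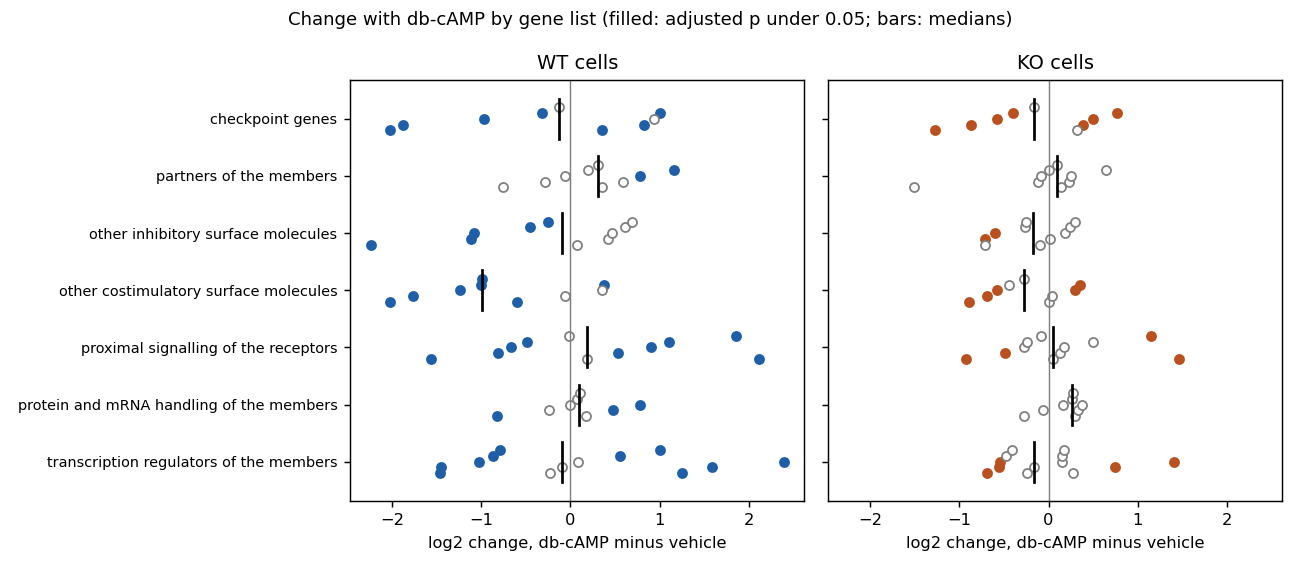
Log2 change with db-cAMP of every gene tested in the checkpoint list and the 6 lists of related genes, in WT cells (left) and KO cells (right); filled points passed at an adjusted p under 0.05 and bars are medians. Of the 7 lists drawn, the other costimulatory molecules have the lowest median in both panels, at -0.99 in WT and -0.28 in KO cells, and the checkpoint genes spread to both sides of 0.

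The genes whose log2 signals most resembled those of each checkpoint gene over the 8 arrays were found by Pearson correlation among all genes tested, as a description with no test. For Btla these were Tsr2, Bcap29 and Tfrc, the transferrin receptor, at 0.998, 0.997 and 0.996. Mean Tfrc signals were 8912 and 2734 in WT cells with vehicle and db-cAMP and 6776 and 4836 in KO cells, in the group order of Btla. Pdcd1lg2 had Pycrl, Hdhd2 and Cinp at 0.997, 0.996 and 0.996. For Ctla4 they were Sesn3, Fyb, an adaptor of T cell receptor signalling, and Creb3l2 at 0.996, 0.994 and 0.993. Icos had Uqcc3, Dennd5a and the phosphatase gene Dusp5 at 0.986, 0.986 and 0.984. Lag3 had Scd2, the IL-12 receptor chain Il12rb1 and Prim2 at 0.984, 0.981 and 0.981. Mean Il12rb1 signals were 463 in WT cells with vehicle and 155 to 169 in the other 3 groups, so that one group stood above the rest as it did for Lag3. Cd28 had Smarcc2, the calcium sensor Stim1 and Akap8l at 0.977, 0.977 and 0.973. Cd274 had Wdr90, Mad2l2 and Tepsin at 0.974, 0.964 and 0.955, Havcr2 had Lhfp, Adgrg3 and Rap2a at 0.956, 0.95 and 0.945, and Pdcd1 had Mcoln2, Pms2 and Cep126 at 0.955, 0.948 and 0.944. The lowest values belonged to Pdcd1 and the dim Havcr2.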

How the data were processed

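The deposited values are linear intensity per probe set from MAS5, per the submitters' processing notes, which state no version or settings. The labelled cRNA was made with an in vitro transcription kit that starts at the 3-prime end, per the labels' protocols. Trimmed of its lowest and highest values, each deposited column (middle 96 percent) had a mean of 500.0, so the intensity columns had been brought to 1 level and changes in total mRNA per cell are not measured. The number of arrays limits the precision, and dim genes have wider errors.

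Names came from the platform annotation (34945 probe sets with 1 symbol, 932 with several, 9160 with none; 64 controls set aside). A gene was represented by its probe set of highest mean log2 value; the linear mean chose the same ones for all 9 checkpoint genes. Values were taken as log2(value + 5.48), the offset being the 10th percentile, which understates fold changes of dim genes. Genes had to exceed the median of their array on 2 or more arrays, which 12091 did. Tests were limma 3.58.1 in R 4.3.3 (lmFit, eBayes with an intensity trend), a term for each group over 8 arrays, 4 residual degrees of freedom, Benjamini-Hochberg adjustment. Errors of log2 changes are standard errors. The fit was tested on simulated data. Figures used Python 3.11.15 and matplotlib 3.10.9.

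The genes, lists and tests were chosen with earlier results of these data known. Named were all 9 checkpoint genes, some of the up to 4 called genes of each list with the largest changes, and the 3 genes most correlated with each checkpoint gene. Alternatives were offsets of 1 and 32, no filter, quantile normalization, an equal 75th percentile, no trend, the mean of probe sets, every probe set, a replicate block, the compared arrays alone and leaving out each array. Some list members were not analysed here.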

Additional observations from a re-analysis of the deposited data

Results flagged for a closer look

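The response of 4 checkpoint genes to db-cAMP differed between the genotypes by the interaction test, the log2 change in KO minus that in WT cells. For Btla the difference was 1.296 and for Pdcd1lg2 1.161, from falls that were larger in WT cells. For Lag3 it was 0.7987, with a WT fall and a KO change that did not pass. For Cd274 it was -0.9443, from a fall that was larger in KO cells. No group holds 4 or more arrays, so single arrays could not be compared with their own group for outliers.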

How the results depend on the processing

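Each db-cAMP change of Pdcd1lg2, Ctla4, Lag3, Btla, Icos and Cd28 in WT cells kept its direction and its side of the threshold under all 18 alternatives, as did that of Cd274 in KO cells, and the interactions of Btla and Cd274 did so under all 17. Without the intensity trend the checkpoint genes called numbered 1 for db-cAMP in KO cells, 1 for KO against WT under vehicle and 2 for the interaction, and all genes called numbered 188, 251 and 261 in these comparisons. The interaction of Pdcd1lg2 then had an adjusted p of 0.0669. With an equal 75th percentile 2 checkpoint genes were called for KO against WT under vehicle. With the mean of probe sets, all genes called were 479 (db-cAMP in KO), 780 and 2331 (KO against WT under vehicle and db-cAMP) and 694 (interaction), and with every probe set 6385 (db-cAMP in WT), 2401 and 5790 (KO against WT), against 4233, 1013, 1311, 3529 and 1425 genes for the 5 comparisons. Leaving out 1 array gave 446 to 1096 genes for db-cAMP in KO cells, 619 to 1400 for KO against WT under vehicle (2 to 4 checkpoint genes) and 894 to 1344 for the interaction. Leaving out an array means fewer arrays, and every probe set means more features tested. The cause of these differences in counts was not tested.

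Some signs of checkpoint gene changes that had not passed turned. Leaving out 1 array, the change of Pdcd1 with db-cAMP in WT cells ran from -0.27 to 0.016. Between genotypes under vehicle, Ctla4 ran from -0.155 to 0.086 (0.057 without KO vehicle replicate 2) and Havcr2 from -0.048 to 0.979. Between genotypes under db-cAMP, Pdcd1 ran from -0.070 to 0.033 (0.011 without WT db-cAMP replicate 1), Havcr2 from -0.369 to 0.059 (0.0082 without WT db-cAMP replicate 1) and Icos from -0.095 to 0.056 (0.00034 without WT db-cAMP replicate 2, and 0.0097 after quantile normalization). The Cd28 interaction ran from -0.035 to 0.115. Called changes of 3 list genes turned with the mean of probe sets. Lrba with db-cAMP in WT cells went from -0.83 to 0.33, Stat3 between genotypes under vehicle from 0.59 to -0.15, and Ptpn6 from 0.33 to -0.19 between genotypes under db-cAMP and from 0.64 to -0.027 for the interaction.

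The titles number the replicates 1 and 2 in each group. Same-numbered arrays did not deviate together across genes (correlations of -0.02 to 0.02). This cannot tell whether the same number stands for a shared mouse, culture or day. With the replicate block 7, 7, 4, 4 and 4 checkpoint genes and 4184, 935, 1250, 3485 and 1373 genes were called in the 5 comparisons.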
